A study of Cricetulus griseus with 24 samples.

Results

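The genes of N-glycan synthesis and processing were followed through 3 Chinese hamster ovary (CHO) cell lines at 2 growth phases. The group lists 49 genes by symbol, after the steps of the pathway, and was drawn up with earlier results of these data known. Of these, 47 had a row among the 28037 genes of the deposited count table, and all 47 had enough reads to be tested in each comparison. Man1b1 and Gfpt1 were not analysed here. The members were ordered by role: 15 genes assemble the lipid-linked oligosaccharide, 9 transfer it to protein, 9 trim it, 9 branch, fucosylate or galactosylate it, and 5 make or carry sugar donors.

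A0 is an antibody-producing line of DG44 cells, a CHO line widely used as a host for antibody production. It carries a plasmid with an IgG heavy chain and a selection marker and a plasmid with the light chain and neomycin phosphotransferase. A1 is the progeny of A0 after stepwise selection in rising methotrexate, a folate analogue. CHO-S is another CHO line, which makes no antibody, and served as the negative control. All 6 CHO-S samples also carry the term NDST in their titles, which the sources used here do not explain, so that a genotype or treatment behind it cannot be told apart from the line in any comparison with CHO-S. Each line was sampled at exponential and at stationary phase. A0 and A1 are 1 line each, so a difference between them belongs to this pair of lines and cannot be assigned to amplification in general. A1 differs from A0 both in its selection history and in its productivity, and these cannot be told apart here. CHO-S differs from both in lineage as well as in production. By the labels, A0 had 4 cultures per phase, and A1 and CHO-S had 3 each. The study's methods describe triplicate suspension flasks for each line, which does not match the 4 numbered A0 cultures, and what the added culture is remained unknown. The A0 and A1 lines were kept in serum-free medium.

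N-linked glycans are built on the lipid dolichol in the membrane of the endoplasmic reticulum. They are transferred as a block to asparagine residues of a nascent protein by oligosaccharyltransferase and are then trimmed by glucosidases and mannosidases. In the Golgi, N-acetylglucosaminyltransferases start new branches, which receive galactose and further sugars, and Fut8 adds fucose to the core. On an antibody the glycan sits on the Fc part of the heavy chain, and its core fucose and galactose are known to affect effector functions.

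The 24 libraries held from 1038026 to 14652646 reads assigned to genes. CHO-S stationary culture 1 stood apart, with 1038026 reads on genes against at least 6532373 in each other library, and with 32.8% of its reads outside genes against 18.4% or less elsewhere. Results that rest on the CHO-S stationary cultures are therefore given with and without it. The share of unaligned reads differed between the lines. At exponential phase it was 2.3 to 2.4% in CHO-S, 3.1 to 4.8% in A0 and 7.5 to 8.6% in A1. At stationary phase it was 2.4 to 3.1%, 6.4 to 9.4% and 10.3 to 11.5% in the same order. This share moves with line and phase, and its part in the differences was not tested. A0 cultures 1 and 2 also differed from A0 cultures 3 and 4 in the share of unaligned reads. It was 4.2 to 4.8% against 3.1 to 3.4% at exponential phase, and 9.4 and 8.9% against 7.0 and 6.4% at stationary phase. The same split runs through the labels, where the second exponential library is marked RLT for cultures 1 and 2 and Duplicate for cultures 3 and 4, terms that are not explained. Levels are given in CPM, the count of a gene scaled to the library size, after TMM normalization over all 20 cultures, and each value is the level of 1 culture unless a mean is named. The mesenchymal marker Vim lay between 728 and 1465 CPM. Of the markers of other cell types, Fshr was at 0 in every culture, Ptprc and Alb were below 1 CPM, Cdh5 reached 0.808 and Rbfox3 1.03 CPM, and Pecam1 lay between 0.451 and 7.18 CPM.

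The comparison of A1 with A0 asked how the transcriptome of an amplified line differs from that of its parent. At exponential phase, 11 of the 47 members were higher in A1 and 7 were lower (edgeR's quasi-likelihood test, adjusted p under 0.05 over all genes tested), whereas 12% of all 19946 genes tested were higher and 13.8% were lower. At stationary phase 10 members were higher and 12 lower, against 16% and 17.7% of 19293 genes. The median log2 fold change of the members was 0.05 at exponential phase, beside -0.04 over all genes, and -0.0075 at stationary phase, beside -0.0021. Thus the members moved in both directions, with a median size of 0.23 on the log2 scale at each phase, whereas that of all genes was 0.38 and 0.41. Of all genes tested, only 10579 and 10572 had at least 5 CPM on average. No size was taken over these, so the members are not shown to move less than genes of like level. Among genes with at least 5 CPM on average, which are easier to call, 18.2% were higher and 19.5% lower at exponential phase and 23.2% and 24.2% at stationary phase. In such bulk samples of a cell line, a change in every cell and a change in a part of the cells cannot be told apart.

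The changes were small. No member past the test differed by 1.5-fold or more at exponential phase, and 3 did at stationary phase: Dolk, Mogs and Alg11. Over all genes, 2536 of 19946 tested did so at exponential phase and 3339 of 19293 at stationary phase. Those counts take in genes with few reads. With each culture left out in turn, 9 of the 18 exponential and 12 of the 22 stationary calls were past the threshold in all 7 fits, and no called member turned its direction. The count was 10 without A1 exponential culture 2 or without culture 3, and 13 without A1 stationary culture 2. Calls over all genes fell too, from 5163 to 3403 and 3160 at exponential phase and from 6496 to 4863 at stationary phase. Between the phases, 9 members were past the test at both, 9 only at exponential phase, 13 only at stationary phase and 16 at neither. Such counts were not made over all genes, so nothing particular to the members is shown by them. Of the 9 at both phases, Alg1, Dolk, Ostc and Mgat2 were higher in A1 at both, Alg11, Stt3a, Magt1 and Mogs were lower at both, and Ganab was higher at exponential but lower at stationary phase. These 9 are named after their values were seen.

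**Figure D1:**
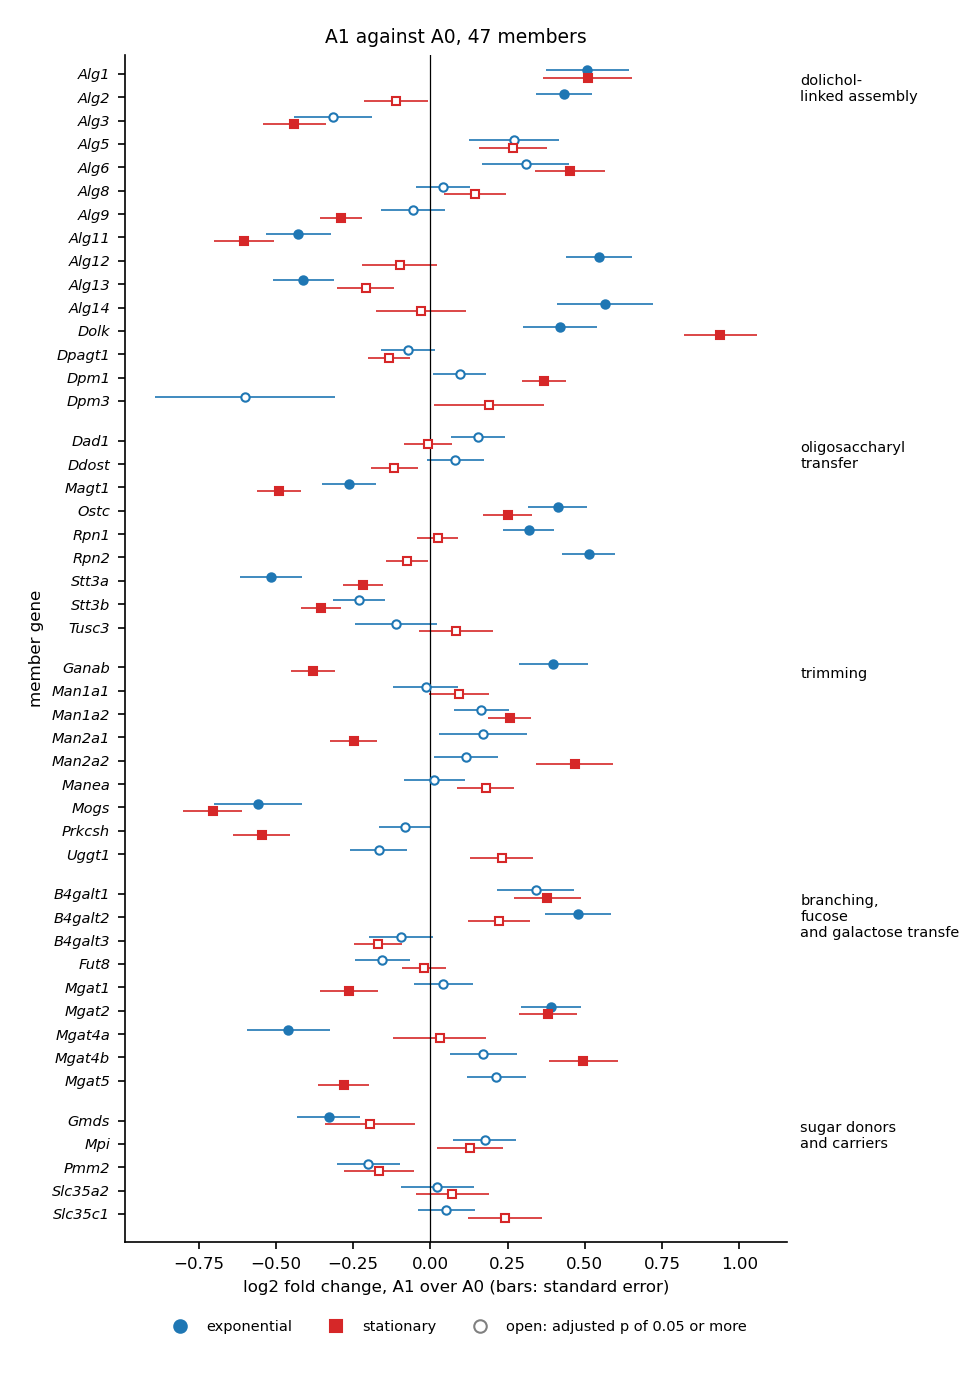
Log2 fold change of A1 over A0 for each of the 47 members, ordered by role, at exponential phase (circles) and stationary phase (squares), with standard errors as bars and filled symbols where the adjusted p was under 0.05. Members of every role but the last lie on both sides of 0 among the filled symbols, and Dolk at stationary phase, at 0.94, lies farthest out.

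Of the 15 genes that assemble the lipid-linked oligosaccharide, 5 were higher and 2 lower in A1 at exponential phase, and 4 were higher and 3 lower at stationary phase. The shares of all genes tested were 12% higher and 13.8% lower, and then 16% and 17.7%. Dolk (gene 100768385), the kinase that makes dolichol phosphate, had the largest difference of all members. At stationary phase its level was 9.49, 9.24, 10.1 and 9.22 CPM in the A0 cultures and 18.1, 20.4 and 16.6 CPM in the A1 cultures. The A1 cultures thus stood well above all A0 cultures, 1.92-fold on average by the fit (log2 fold change 0.94, standard error 0.12, edgeR adjusted p = 3.6e-05). At exponential phase Dolk was at 16.9, 17.6, 21.4 and 19.95 CPM in A0 and at 22.3, 28.5 and 25.4 CPM in A1, a smaller difference of 0.42 (standard error 0.12) with no overlap of the cultures. That exponential call was lost without A0 culture 2 and without A1 culture 2 or 3 (edgeR adjusted p = 0.053, 0.13 and 0.075).

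Alg1 (gene 100773731), which adds the first mannose, followed the same direction. Its exponential levels were 11.8, 9.11, 9.18 and 10.7 CPM in A0 and 13.3, 14.7 and 15.6 CPM in A1. Its stationary levels were 7.26, 5.63, 6.78 and 6.30 CPM in A0 and 9.24, 9.91 and 8.74 CPM in A1. All A1 cultures were above all A0 cultures at each phase, and the log2 fold change was 0.51 at both (standard errors 0.13 and 0.14). The call was lost without A1 exponential culture 2 or culture 3, and at stationary phase without A1 culture 2 (edgeR adjusted p = 0.051, 0.077 and 0.073).

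Alg11 (gene 100771009), the mannosyltransferase that adds the last mannoses on the cytosolic side, went the other way. It was at 52.7, 43.4, 41.4 and 48.0 CPM in the A0 exponential cultures and at 34.8, 34.2 and 34.6 CPM in those of A1. At stationary phase it was at 55.0, 51.2, 44.1 and 47.1 CPM in A0 and at 35.0, 30.8 and 32.6 CPM in A1. The A1 cultures were lower throughout, with log2 fold changes of -0.43 (standard error 0.11, edgeR adjusted p = 0.0069) and -0.60 (standard error 0.10, edgeR adjusted p = 0.00025).

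The other calls of this role were made at 1 phase. Alg13 and Alg14 together add the second N-acetylglucosamine, and Alg2 and Alg12 add mannoses. Alg2, Alg12 and Alg14 were higher in A1 at exponential phase, by 0.43, 0.55 and 0.57 on the log2 scale, and had values of -0.11, -0.10 and -0.03 at stationary phase. The call of Alg14 was lost without any 1 of the A1 cultures (edgeR adjusted p = 0.053 to 0.064). Alg13 was lower at exponential phase (-0.41). Alg6, which adds the first glucose, and Dpm1, the catalytic subunit of dolichol-phosphate-mannose synthase, were higher at stationary phase (0.45 and 0.37), and the mannosyltransferases Alg3 and Alg9 were lower (-0.44 and -0.29). Dpagt1, the enzyme that starts the chain, did not pass the test at either phase (-0.07 and -0.13).

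Among the 9 genes of oligosaccharyl transfer, 3 were higher and 2 lower in A1 at exponential phase, and 1 was higher and 3 lower at stationary phase. Of all genes tested, 12% were higher and 13.8% lower at the former and 16% and 17.7% at the latter. Stt3a (gene 100751391) and Stt3b (gene 100752084) are the alternative catalytic subunits of the transferase. Stt3a was at 542, 575, 653 and 504 CPM in the A0 exponential cultures and at 379, 424 and 391 CPM in those of A1. All A1 cultures were lower, with a log2 fold change of -0.52 (standard error 0.10, edgeR adjusted p = 0.0014). At stationary phase Stt3a was at 383, 384, 369.9 and 393 CPM in A0 and at 312, 345 and 337 CPM in A1. The difference was then smaller, -0.22 (standard error 0.07, edgeR adjusted p = 0.018), and it was not past the threshold without A1 stationary culture 1 (edgeR adjusted p = 0.082). The same call was lost with scaling to total counts, with the replicate number as a block and with all 6 groups in 1 fit (edgeR adjusted p = 0.066, 0.057 and 0.35).

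Stt3b was at 411, 420.4, 458 and 449 CPM in A0 and at 364, 377 and 372 CPM in A1 at exponential phase. The cultures did not overlap, but the difference of -0.23 missed the threshold (standard error 0.08, edgeR adjusted p = 0.056), and it passed without A0 culture 1 or culture 4 (edgeR adjusted p = 0.034 and 0.037). It also passed with DESeq2, with a stricter count filter and with the first A0 libraries only (adjusted p = 0.020, 0.037 and 0.016). At stationary phase Stt3b was at 466, 447, 418 and 431 CPM in A0 and at 338, 356 and 349 CPM in A1, lower in A1 by -0.35 (standard error 0.07, edgeR adjusted p = 0.00075). Magt1, an oxidoreductase subunit of the Stt3b complex, was lower in A1 at both phases (-0.26 and -0.49). The exponential call of Magt1 was lost in 4 of the 7 fits with a culture left out, without A0 culture 3 or any A1 culture.

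The accessory subunits Ostc, Rpn1 and Rpn2 were higher in A1 at exponential phase. Ostc, a subunit of the Stt3a complex, was at 71.8, 60.1, 58.6 and 66.4 CPM in A0 and at 82.0, 90.4 and 84.4 CPM in A1, 0.41 higher on the log2 scale (standard error 0.10). At stationary phase it was 0.25 higher (standard error 0.08), a call that was lost in 4 of the 7 fits with a culture left out, namely without A0 culture 3 or 4 and without A1 culture 2 or 3. Rpn1 and Rpn2 were 0.32 and 0.51 higher at exponential phase and at 0.02 and -0.08 at stationary phase, and the call of Rpn1 was lost without A1 culture 2 or 3 (edgeR adjusted p = 0.063 and 0.061). Ddost, Dad1 and Tusc3 did not pass the test at either phase, with log2 fold changes between -0.12 and 0.15.

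Of the 9 trimming genes, Ganab was higher and Mogs lower in A1 at exponential phase, and 2 were higher and 4 lower at stationary phase. All genes tested had shares of 12% and 13.8%, and of 16% and 17.7%. Mogs (gene 100689098), glucosidase I, removes the outermost glucose. It was at 53.5, 51.2, 59.0 and 81.5 CPM in A0 and at 38.9, 40.7 and 45.3 CPM in A1 at exponential phase. At stationary phase it was at 79.2, 68.9, 87.1 and 82.7 CPM in A0 and at 44.2, 53.2 and 49.4 CPM in A1. All A1 cultures were below all A0 cultures, with log2 fold changes of -0.56 (standard error 0.14, edgeR adjusted p = 0.0088) and -0.70 (standard error 0.09, edgeR adjusted p = 5.8e-05). Without A1 exponential culture 1 the first of these had an adjusted p of 0.055.

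Ganab and Prkcsh, the catalytic and the regulatory subunit of glucosidase II, which removes the remaining glucoses, were both lower in A1 at stationary phase (-0.38 and -0.55). The Golgi mannosidases were split at that phase. Man1a2 and Man2a2 were higher in A1 (0.26 and 0.47) and Man2a1 was lower (-0.25), whereas none of them passed the test at exponential phase (0.17, 0.12 and 0.17). All 3 of these stationary calls were lost without A1 culture 2 (edgeR adjusted p = 0.069, 0.053 and 0.12), that of Man2a2 also without A1 culture 3 and that of Man2a1 also without A0 culture 3 or A1 culture 3. Uggt1, the folding sensor that adds glucose back, Man1a1 and Manea did not pass the test at either phase.

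Of the 9 genes that branch, fucosylate or galactosylate the glycan, 2 were higher and 1 lower in A1 at exponential phase and 3 were higher and 2 lower at stationary phase. Beside these counts, 12% and 13.8% of all genes tested were called at exponential and 16% and 17.7% at stationary phase. Fut8 (gene 100751648), the only core fucosyltransferase, was at 117, 129, 129 and 121 CPM in A0 and at 106, 121 and 107 CPM in A1 at exponential phase. At stationary phase it was at 98.7, 86.3, 91.7 and 94.6 CPM in A0 and at 93.8, 90.4 and 92.6 CPM in A1. The cultures overlapped at both phases, and neither log2 fold change passed the test (-0.15, standard error 0.09, edgeR adjusted p = 0.23; -0.02, standard error 0.07, edgeR adjusted p = 0.86). With the first A0 libraries only, Fut8 was lower in A1 at exponential phase by -0.24 and passed the test (edgeR adjusted p = 0.036).

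Mgat1 (gene 100682529), which starts the first branch, was at 45.9, 45.7, 48.0 and 55.2 CPM in A0 and at 49.1, 52.3 and 49.2 CPM in A1 at exponential phase, with a log2 fold change of 0.04 (standard error 0.10, edgeR adjusted p = 0.78). At stationary phase it was at 68.6, 62.0, 55.5 and 64.4 CPM in A0 and at 47.1, 53.0 and 57.0 CPM in A1. The cultures overlapped, and the difference of -0.26 (standard error 0.09, edgeR adjusted p = 0.041) was lost in 5 of the 7 fits with a culture left out, all but those without A0 culture 3 and without A1 culture 3. It was also lost with total counts, the block and all 6 groups in 1 fit (edgeR adjusted p = 0.095, 0.060 and 0.28). Mgat2, which starts the second branch, was at 68.8, 66.0, 66.6 and 83.0 CPM in A0 and at 93.0, 95.5 and 91.6 CPM in A1 at exponential phase. It was higher in A1 by 0.39 there (standard error 0.10) and by 0.38 at stationary phase (standard error 0.09), the latter not without A1 culture 2 (edgeR adjusted p = 0.053).

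Mgat4a and Mgat4b add the same further branch. Mgat4a was lower in A1 at exponential phase (-0.46) and at 0.03 at stationary phase, and Mgat4b was at 0.17 at exponential phase and higher at stationary phase (0.49). The call of Mgat4a was lost without A0 culture 2 and without A1 culture 2 or 3 (edgeR adjusted p = 0.066, 0.058 and 0.11). Mgat5 was at 0.21 at exponential phase and lower at stationary phase (-0.28), but not without A1 culture 2 or 3 (edgeR adjusted p = 0.087 and 0.051). B4galt1 (gene 100689430), the main galactosyltransferase of antibody glycans, was at 11.97, 11.1, 11.4 and 13.97 CPM in A0 and at 14.6, 15.1 and 16.3 CPM in A1 at exponential phase. Those cultures did not overlap, yet the difference of 0.34 missed the threshold (standard error 0.12, edgeR adjusted p = 0.057), and without A0 culture 4 it passed (edgeR adjusted p = 0.013). It also passed with DESeq2, a stricter count filter, all 6 groups in 1 fit and the block (adjusted p = 0.047, 0.042, 0.032 and 0.014). At stationary phase B4galt1 was at 13.5, 12.6, 12.4 and 12.5 CPM in A0 and at 16.9, 16.9 and 16.3 CPM in A1, 0.38 higher in A1 (standard error 0.11, edgeR adjusted p = 0.014, and 0.051 without A1 culture 2). B4galt2 was higher in A1 at exponential phase (0.48), and B4galt3 did not pass the test at either phase (-0.10 and -0.17).

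Of the 5 genes of sugar donors and carriers, only Gmds passed the test between A1 and A0, at exponential phase. Slc35a2 (gene 100689031), which carries UDP-galactose into the Golgi, was at 14.3, 14.5, 15.7 and 13.97 CPM in A0 and at 14.9, 13.4 and 16.3 CPM in A1 at exponential phase. Its log2 fold change was 0.02 (standard error 0.12, edgeR adjusted p = 0.91), and 0.07 at stationary phase (standard error 0.12, edgeR adjusted p = 0.70). Slc35c1, the GDP-fucose carrier, had values of 0.05 (standard error 0.09) and 0.24 (standard error 0.12), neither past the threshold (edgeR adjusted p = 0.72 and 0.14), although the stationary value passed with the replicate block (0.31, edgeR adjusted p = 0.022). In the 3 fits added after the values were seen, the stationary value ranged from 0.072 to 0.454. It passed in 1 of them (edgeR adjusted p = 0.00027).

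Gmds (gene 100689436), which starts the synthesis of GDP-fucose, was at 36.1, 37.6, 42.9 and 37.2 CPM in A0 and at 31.1, 28.1 and 32.6 CPM in A1 at exponential phase. It was the only donor gene past the test there, lower in A1 by -0.33 (standard error 0.10, edgeR adjusted p = 0.027). The call held only without A0 culture 1 and without A0 culture 4, and was lost in the other 5 fits with a culture left out. At stationary phase Gmds cultures overlapped, with a log2 fold change of -0.20 (standard error 0.15, edgeR adjusted p = 0.34). The mannose-6-phosphate enzymes Pmm2 and Mpi did not pass the test at either phase (-0.20 and -0.17 for Pmm2, 0.18 and 0.13 for Mpi).

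The interaction of line and phase tested whether the difference between A1 and A0 changed from exponential to stationary phase. It was past the threshold for 6 members, Ganab, Alg12, Rpn2, Alg2, Mgat5 and Prkcsh, all with a lower value at stationary phase, and for 0 in the other direction (edgeR; 17 members had an unadjusted p under 0.05, 7 of them above 0). Other fits placed members in that direction too, 4 with same-numbered cultures of a line as blocks and 2 with DESeq2. Of all 20953 genes tested, 3.9% were past it in this direction and 5.04% in the other. In A0 all 6 genes were higher at stationary than at exponential phase. In A1, Alg12 was higher, Rpn2 was lower and the other 4 did not pass the test.

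Ganab had the largest of these values. In A0 it went from 402, 423, 452 and 572 CPM at exponential phase to 818, 800.3, 698 and 718 CPM at stationary phase. In A1 it was at 586, 621 and 623 CPM and then at 577, 592 and 594 CPM. The A1 cultures thus lay above all A0 cultures at exponential phase and below all of them at stationary phase. The log2 fold change of A1 over A0 was 0.40 and then -0.38, a difference of -0.78 (standard error 0.14, edgeR adjusted p = 0.0012). The exponential part was lost when A0 culture 2 was left out, and likewise without A1 exponential culture 2 or culture 3 (edgeR adjusted p = 0.054, 0.075 and 0.083).

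Prkcsh, the partner subunit, went from 382, 386, 379 and 398 CPM to 530.1, 522, 421 and 428 CPM in A0 and from 355, 361 and 378 CPM to 306, 339 and 339 CPM in A1. Its interaction was -0.46 (standard error 0.13, edgeR adjusted p = 0.023). Within A0, cultures 1 and 2 were above cultures 3 and 4 at stationary phase. This gene lost its call in 6 of the 14 fits with a culture left out, namely without A1 exponential culture 2 or 3, A0 stationary culture 1 or 2, or A1 stationary culture 1 or 2, with adjusted p-values from edgeR of at most 0.075.

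Alg2 and Alg12 are mannosyltransferases of the cytosolic and the luminal side. Alg2 went from 43.2, 42.3, 38.0 and 39.5 CPM to 73.2, 71.3, 59.9 and 57.0 CPM in A0 and from 54.3, 55.4 and 55.4 CPM to 54.3, 66.0 and 61.9 CPM in A1. Alg12 went from 40.9, 37.6, 41.0 and 51.4 CPM to 96.6, 81.3, 68.8 and 63.6 CPM in A0 and from 61.9, 63.8 and 61.6 CPM to 77.1, 68.4 and 73.4 CPM in A1. For both genes the A1 cultures were above all A0 cultures at exponential phase, and at stationary phase their ranges overlapped. The interactions were -0.54 for Alg2 and -0.65 for Alg12 (standard errors 0.14 and 0.17, edgeR adjusted p = 0.017 and 0.019). Each was lost without A1 exponential culture 2, that of Alg2 also without A1 stationary culture 1 and that of Alg12 also without A1 stationary culture 2.

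Rpn2, a large non-catalytic subunit of the transferase, went from 1124, 1137, 1152 and 1031 CPM to 1462, 1447, 1268 and 1342 CPM in A0. In A1 it went from 1515, 1591 and 1654 CPM to 1291, 1317 and 1350.3 CPM. The lines thus moved in opposite directions and lay side by side at stationary phase, with an interaction of -0.59 (standard error 0.11, edgeR adjusted p = 0.0019). Mgat5, which adds a further branch, went from 77.9, 84.6, 92.7 and 92.0 CPM to 127, 130.0, 126 and 108 CPM in A0. In A1 it stayed between 94.5 and 112 CPM at exponential and between 97.6 and 106 CPM at stationary phase. Its interaction was -0.49 (standard error 0.13, edgeR adjusted p = 0.018), and it was lost without A1 exponential or A1 stationary culture 2 and with the first A0 libraries only (edgeR adjusted p = 0.085 for the latter). Ganab and Rpn2 were past the threshold in all 14 fits with a culture left out.

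**Figure D2:**
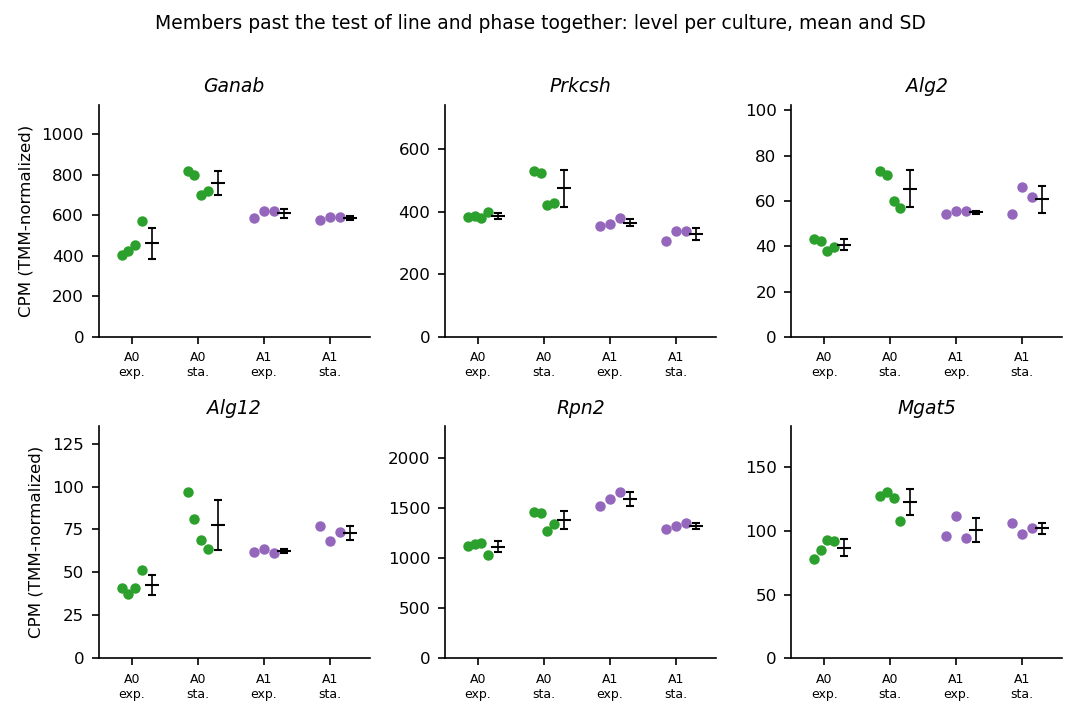
Level of Ganab, Prkcsh, Alg2, Alg12, Rpn2 and Mgat5 in CPM (TMM-normalized, linear axis from 0) in each A0 and A1 culture at exponential and stationary phase, with the mean and SD beside the points (n = 4 for A0, n = 3 for A1). In A0 the stationary cultures are higher for each gene, whereas in A1 only Alg12 is past the test as higher and Rpn2 as lower.

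These 6 members depended on which A0 cultures were used. With A0 cultures 1 and 2 alone, 20 members were past the interaction, 7 higher and 13 lower, among them all 6 (12% and 10.7% of all genes). With A0 cultures 3 and 4 alone, 4 were past it, of which 1 was higher and 3 were lower (5.09% and 3.96%), and of the 6 only Ganab, Rpn2 and Alg2 (-0.52, -0.52 and -0.44). Alg12 then had a value of -0.30, against -0.97 with cultures 1 and 2. Both splits were added after the values were seen. All 6 values were below 0 in both splits. With same-numbered cultures of a line as blocks, 4 members were higher and 9 lower, including the 6 (8.92% and 7.47% of all genes). With all 6 groups in 1 fit, which takes the spread of the CHO-S stationary cultures into the common estimate, edgeR placed 0 members past it (13 had an unadjusted p under 0.05, and DESeq2 placed 9 past it in the 4 groups), beside 2.77% of all genes higher and 1.78% lower. The same fit without CHO-S stationary culture 1 placed 2 members higher and 7 lower (6.48% and 5.16%). What sets the A0 cultures apart was not tested.

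Within A0, 12 members were higher and 14 lower at stationary than at exponential phase (edgeR), whereas 17.7% of 20267 genes tested were higher and 20.1% lower. Beside the interaction genes, B4galt3 and Mgat1 were higher, by 0.59 and 0.35. Dolk fell most, by 1.01 on the log2 scale (standard error 0.12, edgeR adjusted p = 8.0e-06), from between 16.9 and 21.4 to between 9.22 and 10.1 CPM. Mgat4b fell by 0.85, from between 33.2 and 39.6 to between 17.2 and 23.01 CPM. Uggt1 fell by 0.78, from between 202 and 250.3 to between 110.4 and 159.6 CPM. Fut8 fell by 0.43 (standard error 0.09). Of the interaction genes, Rpn2 and Prkcsh lost their A0 call in 1 and 4 of the 8 fits with a culture left out, Rpn2 without stationary culture 2 and Prkcsh without exponential culture 2 or 3 or stationary culture 1 or 2. With A0 cultures 3 and 4 alone 4 members were higher and 11 lower (13.1% and 14.6% of all genes).

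Within A1, 6 members were higher and 13 lower at stationary phase (edgeR), beside 15.6% and 17.8% of 18548 genes tested. Alg1, Mgat4b and Dolk fell most, by 0.63, 0.49 and 0.44, and Fut8 fell by 0.25 (standard error 0.06). Mgat4a rose from 10.5, 9.99 and 8.84 CPM to 20.3, 15.2 and 12.98 CPM, by 0.71 (standard error 0.14, edgeR adjusted p = 0.00014), and B4galt3 rose by 0.55. Mogs rose by 0.26 (standard error 0.08, edgeR adjusted p = 0.011), a call that was lost without A1 exponential culture 1 or A1 stationary culture 2 (edgeR adjusted p = 0.077 and 0.093). Stt3a and Man1a2 were lower at stationary phase in A0 (-0.58 and -0.49) and in A1 (-0.24 and -0.35), and Ostc was higher in both (0.33 and 0.21), in A0 not without exponential culture 2 and in A1 not without exponential culture 1 (edgeR adjusted p = 0.051 and 0.066). The A0 and A1 phase comparisons share no cultures.

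**Figure D3:**
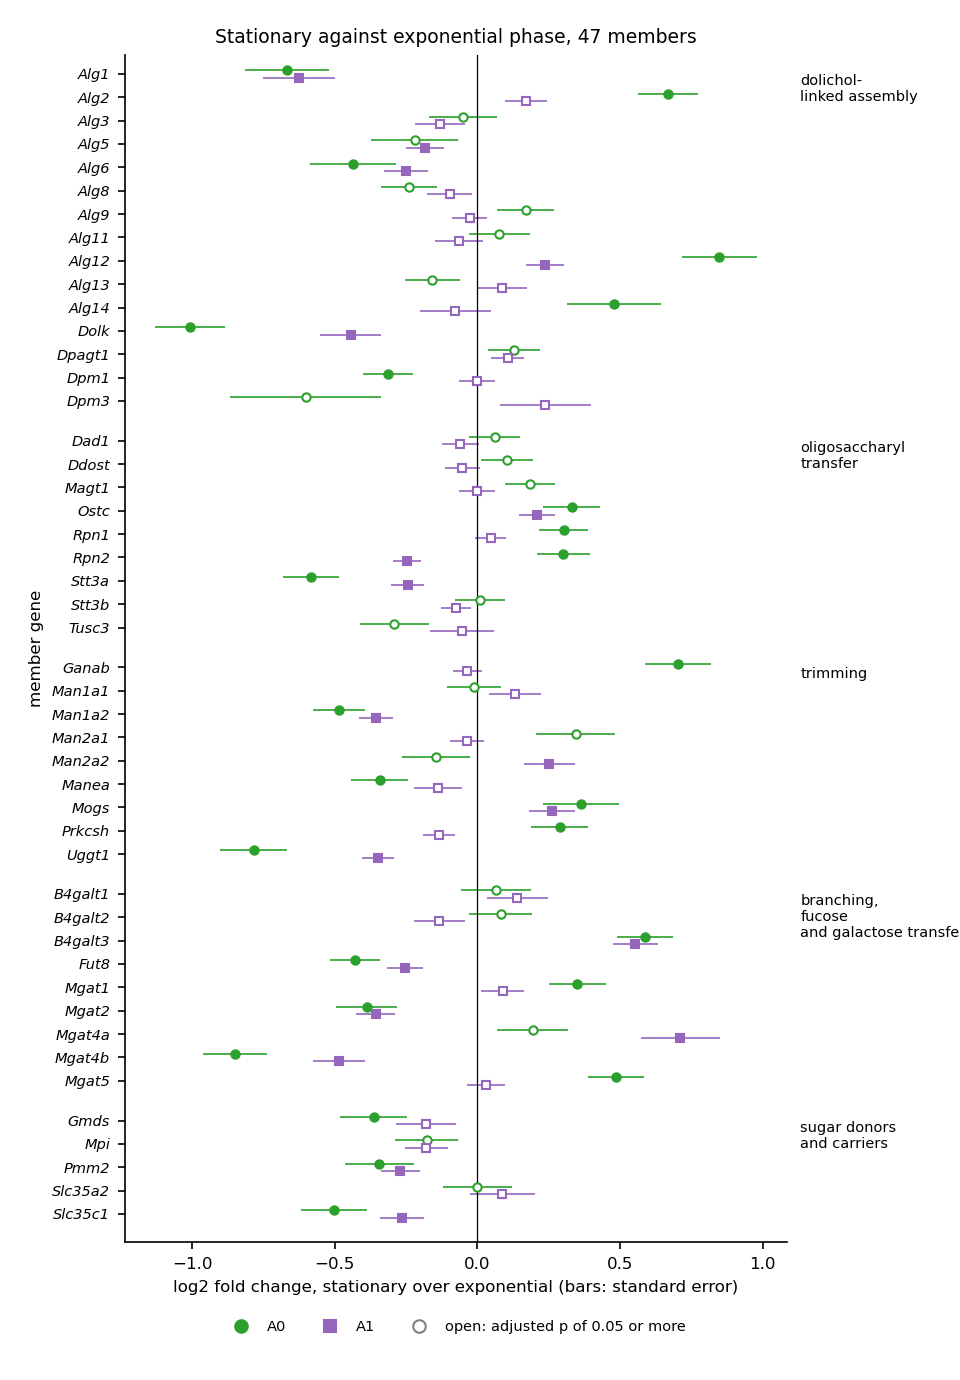
Log2 fold change of stationary over exponential phase for the 47 members, ordered by role, in A0 (circles) and A1 (squares), with standard errors as bars and filled symbols where the adjusted p was under 0.05. Dolk in A0, at -1.01, is the lowest value and Alg12 in A0, at 0.85, the highest.

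Within CHO-S, 2 members were higher and 2 lower at stationary phase (edgeR), beside 6.81% and 6.48% of 17367 genes tested. Without CHO-S stationary culture 1, 18 were higher and 14 lower (23.1% and 24.7% of all genes), whereas leaving out any other CHO-S culture left 0 (4 to 8 members had an unadjusted p under 0.05, and DESeq2 placed 4 past the threshold with all cultures). In those fits 0 to 574 of all genes were called, of 16838 or more tested, so the 0 is not particular to the members. The 4 members with all cultures were Dpm3 (0.80), Man1a1 (0.52), Alg8 (-0.64) and Mgat2 (-0.61), and without culture 1 their values were 0.77, 0.54, -0.56 and -0.56, all past the threshold. Without it Mpi rose most, by 0.84 (standard error 0.06). Man1a1 lay between 38.6 and 40.1 CPM at exponential phase and at 54.7, 57.7 and 55.3 CPM at stationary phase, so that culture 1 lay just below the others for this gene.

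A0 and A1 were each compared with CHO-S, the negative control of the study. The comparisons share the CHO-S cultures, and their values are given side by side. At exponential phase, 17 members were higher and 12 lower in A0 than in CHO-S (edgeR), beside 27.6% and 21.9% of 19966 genes tested. In A1, 21 were higher and 13 lower, beside 30% and 27.1% of 18488 genes. Among genes with at least 5 CPM on average the shares were 33.7% and 32.0% for A0 and 37.6% and 38.5% for A1. Of the 15 assembly genes, 8 were higher and 2 lower in A0, and 8 higher and 1 lower in A1. Of the 9 genes of branching, fucose and galactose, 1 was higher and 4 lower in A0, and 3 higher and 5 lower in A1.

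**Figure D4:**
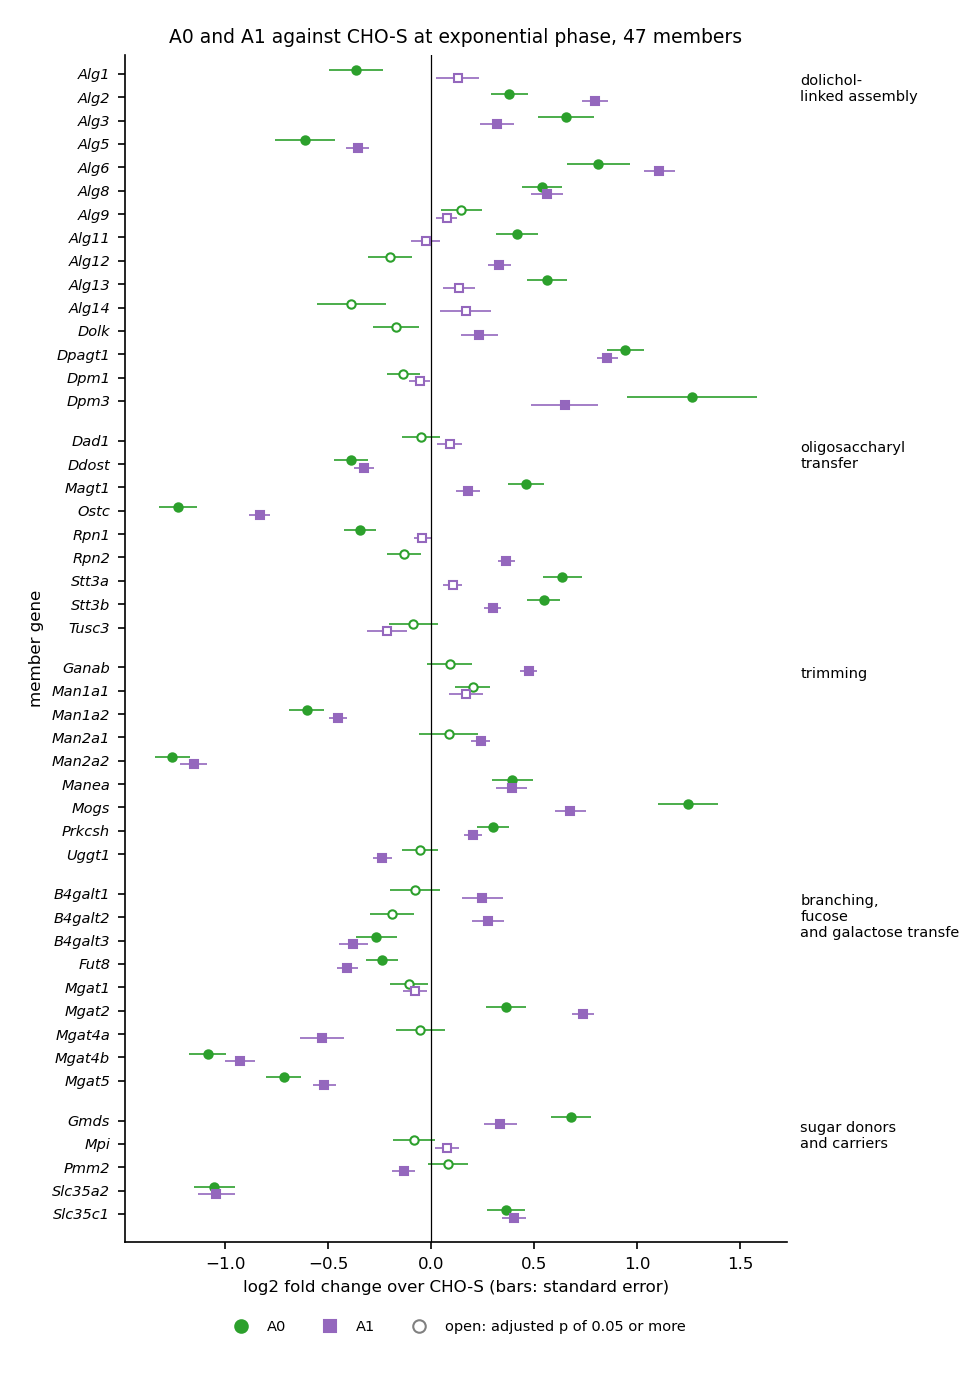
Log2 fold change over CHO-S at exponential phase for the 47 members, ordered by role, in A0 (circles) and A1 (squares), with standard errors as bars and filled symbols where the adjusted p was under 0.05. Mogs, Dpagt1 and Alg6 lie to the right of 0, and Man2a2, Ostc, Mgat4b and Slc35a2 to the left, in both lines.

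Slc35a2, Mgat4b, Man2a2 and Ostc had the lowest values against CHO-S. Slc35a2, the UDP-galactose carrier, was at 30.8, 29.2 and 31.8 CPM in CHO-S at exponential phase, against 13.97 to 15.7 CPM in A0 and 13.4 to 16.3 CPM in A1. No culture of A0 or A1 came near those of CHO-S, and the log2 fold changes were -1.05 and -1.04 (standard errors 0.10 and 0.09, edgeR adjusted p = 5.2e-07 and 4.4e-10). Mgat4b was at 83.2, 76.9 and 77.8 CPM in CHO-S and lower in A0 and A1 by -1.08 and -0.93 (standard errors 0.09 and 0.07). Man2a2, a mannosidase II of the Golgi, was at 83.7, 80.2 and 81.9 CPM in CHO-S, between 31.6 and 36.9 CPM in A0 and between 34.6 and 41.1 CPM in A1. Its log2 fold changes were -1.26 and -1.15 (standard errors 0.09 and 0.07).

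Ostc was at 159, 150.1 and 146 CPM in CHO-S and lower by -1.23 in A0 and -0.83 in A1 (standard errors 0.09 and 0.05). Mgat5 was lower by -0.72 in A0 and -0.52 in A1, and Mgat4a was at -0.05 in A0 and lower by -0.53 in A1 (standard error 0.11). Fut8 was at 149, 145 and 148 CPM in CHO-S, above every A0 and A1 culture, with log2 fold changes of -0.24 and -0.41. The call in A0 was lost without any 1 of the CHO-S cultures (edgeR adjusted p = 0.054 to 0.067). Mgat2 was higher than in CHO-S by 0.36 in A0 and 0.74 in A1, and in A1 the galactosyltransferases B4galt1 and B4galt2 were higher too (0.25 and 0.27). The call of B4galt2 held in all 6 fits with a culture left out, and that of B4galt1 did not.

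The members that were higher than in CHO-S belonged to several roles. Not all assembly genes were among them: Alg5 was lower in both lines. Its mean was 84.7 CPM in CHO-S, 54.9 CPM in A0 and 66.3 CPM in A1. Dpagt1 (gene 100689054), which starts the chain, was at 83.6, 80.5 and 75.4 CPM in CHO-S, at 143, 143, 158 and 165 CPM in A0 and at 142, 142 and 151 CPM in A1. A0 and A1 lay far above CHO-S and close to each other, with log2 fold changes of 0.94 and 0.85 (standard errors 0.09 and 0.05, edgeR adjusted p = 6.0e-07 and 1.4e-12). Alg6 was at 19.6, 22.1 and 18.8 CPM in CHO-S, at 30.3, 29.9, 32.8 and 47.5 CPM in A0 and at 42.8, 44.8 and 43.1 CPM in A1, with log2 fold changes of 0.81 and 1.11 (standard errors 0.15 and 0.08). Mogs was at 24.9, 26.6 and 26.7 CPM in CHO-S, below A1 and A0 in turn, with log2 fold changes of 1.25 in A0 and 0.67 in A1 (standard errors 0.15 and 0.08). Alg2 was higher by 0.38 and 0.80, and Gmds by 0.68 and 0.33.

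Dpm3, a small subunit of dolichol-phosphate-mannose synthase, had a low level and a wide spread in A0. It was at 17.2, 12.4, 10.41 and 5.14 CPM in A0 and at 4.71, 3.93 and 5.54 CPM in CHO-S. A0 culture 4 lay within the range of CHO-S and the others above it, and the log2 fold change of 1.26 (standard error 0.32, edgeR adjusted p = 0.0038) was 0.72 with A0 cultures 3 and 4 alone and then missed the threshold (edgeR adjusted p = 0.087).

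At stationary phase 13 members were higher and 9 lower in A0 than in CHO-S (edgeR), beside 20.7% and 19.3% of 19007 genes tested, and 15 and 17 without CHO-S stationary culture 1 (28.0% and 23.8% of all genes). In A1, 6 were higher and 7 lower, beside 18.2% and 16.6% of 18243 genes, and 10 and 16 without that culture (29.9% and 27.5%). In culture 1 the members' levels went both above and below those of the other CHO-S cultures. Mogs was at 4.13 CPM there (4 counts) against 24.7 and 24.1 CPM, and Stt3a at 641 CPM against 351 and 355 CPM. The small number of reads in culture 1 moves with these differences, and its part in them was not tested.

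Slc35a2 shows what culture 1 does to a comparison. It was at 12.4 CPM in culture 1 and at 36.1 and 34.5 CPM in cultures 2 and 3, against 12.7 to 16.6 CPM in A0 and 15.3 to 16.04 CPM in A1. Culture 1 thus lay just below the A0 and A1 cultures, and cultures 2 and 3 far above them. The log2 fold change was -1.07 in A0 and -1.01 in A1 with all cultures (standard errors 0.24 and 0.26, edgeR adjusted p = 0.0051 and 0.017) and -1.25 and -1.21 without culture 1. With all cultures, the call in A1 was lost when any culture other than CHO-S culture 1 was left out, and that in A0 without CHO-S culture 2 (edgeR adjusted p = 0.071).

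Mgat4b and Man2a2 were the lowest against CHO-S at stationary phase. Mgat4b was at 37.2, 95.3 and 103 CPM in CHO-S, between 17.2 and 23.01 CPM in A0 and between 27.4 and 31.6 CPM in A1. Its log2 fold changes were -2.001 in A0 and -1.49 in A1 (standard errors 0.27 and 0.31), and -2.24 and -1.77 without culture 1. The call in A1 was lost without A1 culture 1 (edgeR adjusted p = 0.051). Man2a2 had values of -1.58 and -1.10 (standard errors 0.21 and 0.23), and -1.74 and -1.29 without culture 1. Ostc was lower by -0.88 and -0.62, and by -0.97 and -0.75 without culture 1. Its call in A1 was lost when any culture other than CHO-S culture 1 was left out (edgeR adjusted p = 0.066 to 0.079).

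Man1a2, the mannosidase that trims before branching, was lower by -1.02 in A0 and -0.76 in A1. It was at 466 CPM in CHO-S culture 1 and at 264 and 267 CPM in cultures 2 and 3, and without culture 1 its values were -0.67 and -0.45, both past the threshold. The call in A1 was lost when any 1 of the A1 cultures was left out (edgeR adjusted p = 0.10 to 0.13). Mgat5 was lower in A1 by -0.78 (standard error 0.22, edgeR adjusted p = 0.026), and by -1.01 without culture 1. That call too was lost when any culture other than CHO-S culture 1 was left out.

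Dpagt1 was at 20.6, 66.9 and 59.6 CPM in CHO-S at stationary phase, between 160.0 and 176 CPM in A0 and between 152 and 155 CPM in A1. Its log2 fold changes were 1.67 and 1.55 (standard errors 0.29 and 0.32), and 1.42 and 1.25 without culture 1. Mogs had values of 1.94 and 1.23, and 1.72 and 0.98 without culture 1. With all cultures the call of Mogs in A1 was lost when any culture other than CHO-S culture 1 was left out (edgeR adjusted p = 0.050 to 0.093). Alg6 (0.79 and 1.25), Alg8 (0.95 and 1.10) and Mgat2 (0.57 and 0.95) were higher in both lines, and without culture 1 they were at 0.73 and 1.16, 0.89 and 0.99, and 0.55 and 0.90. In A0, Alg3 was higher by 1.10 and Ganab by 0.90, and without culture 1 by 0.93 and 0.62. The call of Ganab was lost without A0 culture 1 or culture 2 (edgeR adjusted p = 0.064 and 0.061).

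**Figure D5:**
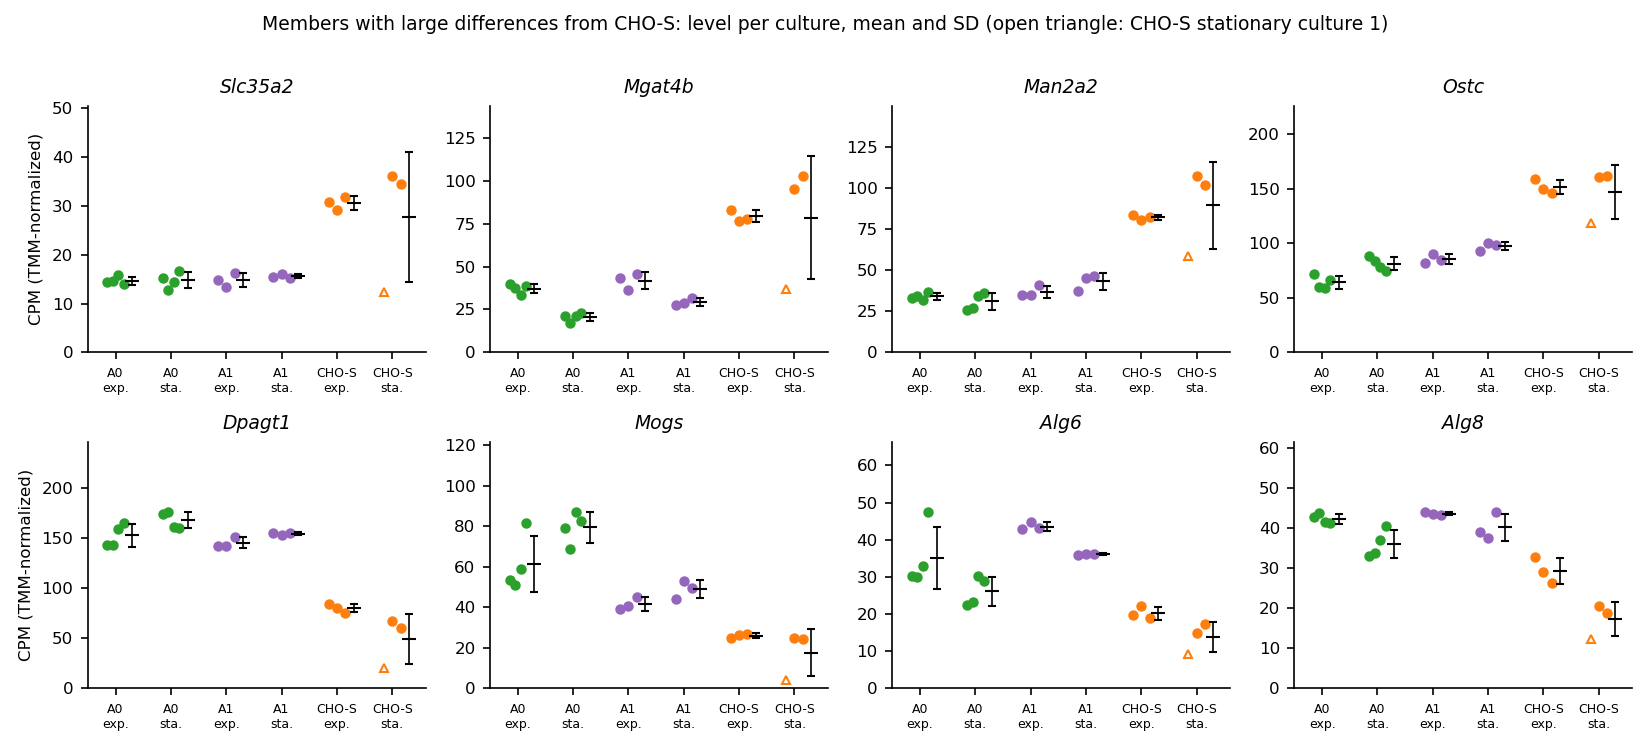
Level of 8 members in CPM (TMM-normalized, linear axis from 0) in each culture of A0, A1 and CHO-S at both phases, with the mean and SD beside the points (n = 4 for A0, n = 3 for A1 and CHO-S). Slc35a2, Mgat4b, Man2a2 and Ostc are higher in CHO-S and Dpagt1, Mogs, Alg6 and Alg8 are lower, while CHO-S stationary culture 1 (open triangle) lies below the other CHO-S stationary cultures in all 8 panels.

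Of a second list of pathway genes that are not among the members (dolichol synthesis, further donors, quality control and further transferases), 47 were in the table and 44 were tested between A1 and A0. At exponential phase 10 were higher and 6 lower in A1, and at stationary phase 8 were higher and 15 lower, with medians of 0.12 and -0.13. Over all genes tested, 12% were higher and 13.8% lower at the first and 16% and 17.7% at the second. Ugp2 (gene 100689325), which makes UDP-glucose, was the only one past the test with 2-fold or more. It was at 63.4, 55.9, 59.9 and 62.2 CPM in A0 and at 87.4, 96.4 and 96.1 CPM in A1 at exponential phase, and at 61.0, 63.7, 63.5 and 58.9 CPM and 126, 122 and 137 CPM at stationary phase. A1 lay above A0 throughout, with log2 fold changes of 0.63 and 1.05 (standard errors 0.09 and 0.08, edgeR adjusted p = 0.00011 and 2.6e-07).

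Some transferases of complex glycans had almost no reads. Mgat3, the bisecting transferase, had at most 2 counts in any culture, Mgat4c had 0 and Mgat5b at most 1. St6gal1, the alpha-2,6 sialyltransferase, was at 0 counts in every CHO-S culture and at 0.0818 to 1.30 CPM in A0 and A1. B4galt6, which makes lactosylceramide, is outside this set and was singled out after its values were seen. It was at 6.91 to 10.3 CPM in CHO-S cultures, at 0 counts in every A0 culture and at 0.164 CPM at most in A1. At these depths a level of 0 counts sets an upper limit and does not show that a gene is silent.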

How the data were processed

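RNA from 20 cultures was sequenced as 24 libraries, since each of the 4 A0 exponential cultures had a second library. Counted as cultures here are the numbered samples of each line at each phase. The sources used here do not state whether same-numbered cultures of a line at both phases were samples of the same flask. The main fits treated them as separate, and their p-values for phase and interaction rest on that. The authors deposited raw counts per gene, made with STAR 2.5.4b on the C_griseus_v1.0 assembly and HTSeq-count 0.7.2 per the labels and the study's methods. The strand setting of the counting is not given in the sources used here. Reads with more than 1 alignment (12.7 to 14.8% per library) and the other lines of the table that name no gene were left out, in all 31.8 to 49.8% of reads. Replicates are flasks of 1 line, so p-values measure the spread between these cultures.

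Libraries of a culture were summed, and a gene entered a fit if 2 or more of its cultures had 1 or more counts and its variance was above 0. Each of 10 comparisons was fitted on the groups compared with edgeR 4.0.16 (glmQLFit, glmQLFTest, TMM, R 4.3.3), two-sided, with Benjamini-Hochberg adjustment over all genes tested and a threshold of 0.05. The scripts were tested on simulated data with 1 fixed spread between cultures, which does not show their error rates in these data. Alternatives were DESeq2 1.42.0, other scalings and filters, first A0 libraries only, all groups in 1 fit, a replicate block and each culture left out. Subsets of A0 cultures, and all groups without CHO-S stationary culture 1, were added after the values were seen.

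The members and lists were chosen with earlier results of these data known. Named with values are 8 fixed members (Fut8, Mgat1, Stt3a, Stt3b, B4galt1, Slc35a2, Slc35c1, Gmds), members called with at least 1.5-fold between A1 and A0 or in the interaction, the 5 largest called in each direction against CHO-S and the 3 largest between phases. Further members that passed or missed the test are named by role with their log2 fold changes, chosen after their values were seen. Same-numbered A0 cultures deviated together across phases (correlations 0.189 to 0.436), and there the block called 13 members higher and 17 lower (20% and 22.7% of all genes). Figures were drawn with matplotlib 3.10.9. No sequence or coordinate is given, because the annotation used here is of another assembly than the counts. The level of 1 marker of line identity is not reported here.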

Additional observations from a re-analysis of the deposited data

Results flagged for a closer look

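In 4 of the 94 groups of 4 A0 cultures that were tested, over 47 members and 2 phases, 1 culture stood apart by more than Dixon's 95% critical value for groups of 4, and chance alone flags about 1 in 20 groups. Alg6 was high in A0 exponential culture 4, at 47.5 CPM against 29.9 to 32.8 CPM in the others (gap over range 0.832). Mgat2 was high in the same culture, at 83.0 against 66.0 to 68.8 CPM (0.832), and low in A0 stationary culture 3, at 46.8 against 57.0 to 57.6 CPM (0.951). Man1a1 was high in A0 stationary culture 2, at 50.6 against 42.2 to 43.3 CPM (0.872).

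The difference between A1 and A0 changed with the phase for 6 members, by the interaction term of edgeR. The values were -0.78 for Ganab, -0.65 for Alg12, -0.59 for Rpn2, -0.54 for Alg2, -0.49 for Mgat5 and -0.46 for Prkcsh on the log2 scale.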

How the results depend on the processing

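Of 80 named results past the threshold, 51 kept their direction and side in every setting run and none turned its direction. The counts of members called moved by over 1.5 times as follows, with the shares of all genes higher and lower in the same fit, and the cause was not tested. With all 6 groups in 1 fit, 13 were called for A1 against A0 at stationary phase (11.9% and 12.2%), 18 for A1 against CHO-S at exponential phase (19.1% and 16.2%), 5 between the A1 phases (5.83% and 5.74%), 8 between the CHO-S phases (9.49% and 9.74%) and 0 in the interaction (2.77% and 1.78%, 13 at an unadjusted p under 0.05; DESeq2 on 4 groups called 9). In that fit without CHO-S stationary culture 1 there were 21 for A1 against CHO-S at stationary phase (22.4% and 19.9%), 11 between the A1 phases (9.09% and 10.5%) and 16 between the CHO-S phases (12.2% and 12.4%). With A0 cultures 1 and 2 alone, 12 were called for A0 against CHO-S at stationary phase (16.4% and 13.8%) and 20 in the interaction (12% and 10.7%). With cultures 3 and 4 alone there were 10 for A0 against CHO-S (15.6% and 14.1%) and 15 between the A0 phases (13.1% and 14.6%).

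With the replicate block, 13 were called for A0 against CHO-S at stationary phase (14% and 12.5%), 0 between the CHO-S phases (edgeR; 1.22% and 0.795% of all genes, 7 at an unadjusted p under 0.05, and DESeq2 called 4 without it) and 13 in the interaction (8.92% and 7.47%). Same-numbered cultures had correlations of -0.15 to 0.19 between the A1 phases and of -0.0074 to 0.12 between the CHO-S phases. Between lines they went down to -0.20. In no comparison, the A0 phases included, did every culture correlate best with its own number. With 3 or 4 cultures per group, this cannot show whether same-numbered cultures came from the same flask. In the A0 phases the block changed no call of a named member.

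With each culture left out, the counts ranged from 10 to 25 and from 13 to 22 for A1 against A0 at exponential and stationary phase, from 5 to 26 for A1 against CHO-S at stationary phase, from 0 to 32 between the CHO-S phases and from 3 to 11 in the interaction. Calls over all genes ranged, in the same order, from 3160 to 6015, 4863 to 6460, 4051 to 10451, 0 to 8269 and 1003 to 2653.

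Besides the changes of call given with each gene, the A0 against CHO-S stationary calls of Slc35a2 and Ganab were lost with either pair of A0 cultures alone, that of Alg3 with cultures 3 and 4 and that of Man1a2 with cultures 1 and 2. The A1 against CHO-S stationary calls of Mgat5 and Man1a2 were lost with total counts and that of Slc35a2 with the block. The A1 against A0 calls of Gmds and Ganab at exponential phase and of Ganab and Mgat5 at stationary phase were lost with all 6 groups in 1 fit, as were the phase calls of Mgat4b and Mogs in A1 and of Dpm3 in CHO-S. With A0 cultures 3 and 4 alone, those of Ganab at exponential and of Mgat1 at stationary phase were lost.

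Directions turned for log2 fold changes of A1 over A0 that were not past the threshold. At exponential phase, with first A0 libraries only, Mgat1 was at -0.0083 and Slc35a2 at -0.0044. With A0 cultures 3 and 4 alone they were at -0.046 and -0.0021, and Slc35c1 at -0.027. With the block Slc35a2 was at -0.0031, and with a culture left out it ranged from -0.051 to 0.085. At stationary phase Fut8 was at 0.041 with total counts alone, and from -0.048 to 0.0072 with a culture left out. With A0 cultures 3 and 4 alone Alg2 was at 0.063, Alg12 at 0.13 and Rpn2 at 0.012, and Alg12 ranged from -0.19 to 0.017 with a culture left out.

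CHO-S stationary culture 1, at 1038026 reads on genes, limits what the CHO-S stationary comparisons can detect, and a call missed there does not show that levels were alike.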
